A study of Mus musculus with 52 samples.

Results

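Mouse imprinted genes were read as 39 rows of the deposited count table, chosen by symbol from loci known to be expressed mainly from a single parental allele, out of 55291 rows in all. They lie at 19 loci and comprise 14 genes described as maternally expressed, 23 described as paternally expressed, Gnas, whose promoters differ in parental origin, and Inpp5f, of which an isoform is imprinted. Levels are CPM, counts scaled by library size with the TMM factors of edgeR, in 52 poly(A) RNA libraries of 25 treatment groups, with 2 libraries a group and 4 of EPSCs. These counts add both alleles together, so more RNA from the active allele and RNA from the other allele cannot be told apart. A gene is said to have risen or fallen in a comparison when edgeR's quasi-likelihood test gave an adjusted p under 0.05 with a log2 fold change of 1 or more in either direction; fold changes are given on the log2 scale with their standard error (SE).

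All cells were labelled WT. S1 cells were EPSCs kept for 2 days in a totipotency medium, with further S1 cells at 25 passages (P25) and 38 passages (P38) in it, and mESC-S1 cells were mESCs kept in it for 2 days. EPSCs were also given CHIR-99021 (an inhibitor of the kinase GSK3, here CHIR) for 2 days, alone or with Elvitegravir (an HIV integrase inhibitor), PD0325901 (a MEK inhibitor) or CD1530 (a retinoic acid receptor agonist). S2 were aggregates of S1 cells after 1 day in the 4C-64C medium and S3 the same after 1 more day. S5 came from a stage after S3, S4 on day 1, kept for 3 days in a peri-implantation medium on Aggrewell plates. S4 itself is not among the libraries, so a comparison of S5 with S3 spans that stage as well. At S2 and S3 further groups lacked 8Br-cAMP (a cyclic AMP analogue), Birabresib (a BET bromodomain inhibitor), CHIR or CD1530, and at S5 they lacked Activin A, BMP4, FGF4 or XAV 939 (a tankyrase inhibitor). The labels give each omission for the last step only, 1 day at S2, 1 day at S3 and 3 days at S5. The starting cells were mESCs in 2i/L medium (line 2i-0606-td-ES) and EPSCs in LCDM medium (line mc6-1/Mu-mClover3-10#, from which all groups other than mESC and mESC-S1 derive). Each cell type is thus a single line. The sources used here do not give the S1 passage that went into aggregates or the base medium of the CHIR groups. They also do not say whether replicate libraries stem from different cultures, so the p-values measure only the spread between libraries.

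Imprinted genes keep a methylation mark, or in some cases a histone mark, that was set in the egg or the sperm. The methylation survives the demethylation of the early embryo because the zinc finger protein ZFP57 and its partner TRIM28 protect copies that carry a short methylated motif. Many of the genes act on growth of the fetus and placenta: IGF2 drives growth, IGF2R clears IGF2, GRB10 dampens insulin receptor signals and CDKN1C holds the cell cycle. Imprints are known to be unstable in cultured mouse stem cells, among them that of the Dlk1-Dio3 domain.

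Library totals ran from 16643188 to 108304781 counts. A first set of 12 libraries held S1, the CHIR groups and EPSC libraries 1 and 2, and a second set of 40 held the rest, with EPSC libraries 3 and 4; each comparison with EPSCs used the pair of its own set. Of the 39 genes 38 passed the filter on low counts; Rtl1, a retrotransposon-derived gene, did not, with at most 0.116 CPM in any library. Igf2, Kcnq1ot1, Nnat, Ndn, Magel2, Peg13, Zrsr1 and Mcts2 had no count in the first set and were judged in the other 40 libraries. In the GENCODE M21 annotation 7 of those 8 lie inside the span of another gene, against 0 of the other 31. Among genes that averaged at least 1 CPM in the second set, 829 of the 904 with no count in the first set lay inside another gene (91.7%), against 75 of the 13545 counted in it (0.554%). Snrpn, which overlaps a neighbour in part, had 0.178 to 0.813 CPM in the first set and 26.1 to 193 CPM in the second, so tests between groups stay within a set, and a level given across sets is a description. The sources used here do not give the strand setting of the counting. Of the exonic bases of Igf2, Nespas, Snrpn, Cdkn1c, Mest and Gnas, 64.5%, 38.5%, 34.1%, 30.7%, 23.1% and 22.0% lie in other annotated genes as well, and reads there may belong to either.

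The sequences shown belong to genes on which the results turn and come from RefSeq on build GRCm38.p6. H19 is a long noncoding RNA (chr7:142575529-142578143, minus strand) that holds the hairpin of miR-675, and Mest (chr6:30723547-30748465, plus strand) holds that of miR-335. Their mature miRNAs are given with the seed, bases 2 to 8, in capitals; small RNAs were not measured in these libraries, and no seed is shared among them.
miR-675-5p: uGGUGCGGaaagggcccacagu
miR-675-3p: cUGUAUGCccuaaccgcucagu
miR-335-5p: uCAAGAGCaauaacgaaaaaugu
miR-335-3p: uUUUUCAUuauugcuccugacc

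Promoter windows of 300 bases around a transcript start were found for 31 of the 39 genes, 49 windows in all. The letters TGCCGC, the core of the motif that ZFP57 binds when methylated, were searched on both strands, GCGGCA being the match on the other strand. They occurred in 12 of the 49 windows (24.5%) and in 3813 of 32851 windows of all genes (11.6%); the windows of imprinted genes also held more CG pairs, with a median of 14 against 7. Windows are printed for Mest and Plagl1, which moved in opposite directions when CHIR was left out, for Zdbf2, which has the window with the most matches, upstream of and outside the GENCODE span of the gene (chr1:63273265-63314576), and for Peg3, which moved with its neighbour Usp29. Capitals mark the motif on either strand.
Mest, chr6:30737800-30738099, plus strand: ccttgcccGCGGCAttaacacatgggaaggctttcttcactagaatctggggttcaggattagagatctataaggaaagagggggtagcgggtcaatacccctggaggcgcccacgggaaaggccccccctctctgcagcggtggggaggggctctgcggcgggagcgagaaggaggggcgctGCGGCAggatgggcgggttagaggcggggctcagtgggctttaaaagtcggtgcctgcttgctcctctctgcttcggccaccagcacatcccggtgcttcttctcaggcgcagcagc
Plagl1, chr10:13090582-13090881, plus strand: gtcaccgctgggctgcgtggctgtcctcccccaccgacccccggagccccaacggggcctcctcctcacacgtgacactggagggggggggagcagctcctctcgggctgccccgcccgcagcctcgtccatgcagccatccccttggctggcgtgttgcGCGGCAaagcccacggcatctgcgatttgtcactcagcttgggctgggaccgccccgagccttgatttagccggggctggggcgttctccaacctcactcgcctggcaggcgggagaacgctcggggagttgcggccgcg
Zdbf2, chr1:63200108-63200407, plus strand: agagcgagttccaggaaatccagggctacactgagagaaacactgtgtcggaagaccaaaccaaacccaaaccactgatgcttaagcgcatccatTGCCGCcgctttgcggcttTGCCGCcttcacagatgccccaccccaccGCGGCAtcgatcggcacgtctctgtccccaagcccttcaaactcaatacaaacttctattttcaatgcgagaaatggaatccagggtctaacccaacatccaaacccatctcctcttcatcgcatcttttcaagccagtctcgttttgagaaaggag
Peg3, chr7:6730370-6730669, minus strand: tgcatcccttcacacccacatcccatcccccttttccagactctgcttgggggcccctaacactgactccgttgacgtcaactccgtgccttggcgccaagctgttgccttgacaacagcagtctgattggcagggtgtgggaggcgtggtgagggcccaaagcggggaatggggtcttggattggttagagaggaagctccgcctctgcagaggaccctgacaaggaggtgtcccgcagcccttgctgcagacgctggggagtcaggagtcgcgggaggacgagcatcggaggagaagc
The Mest window held 2 matches, the Plagl1 window 1, the Zdbf2 window 3 and the Peg3 window none. Another Zdbf2 window, at the start of the annotated gene, held 0 matches. The windows of Peg3 and Usp29 share 263 bases. A match describes these letters only, and methylation was not measured here.

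Within 2 days of the totipotency medium, 9 of the 30 imprinted genes judged in the first set rose over EPSCs and 4 fell; 18.7% of all genes rose and 9.16% fell, 27.8% in all. H19 had 1270.0 and 1176 CPM in S1 cells, against 6.59 and 6.36 CPM in EPSCs (7.56, SE 0.31, adjusted p = 1.3e-21). Airn, the noncoding RNA antisense to Igf2r (chr17:12741311-12860136), had 26.5 and 33.4 CPM in S1 cells, against 2.20 and 2.71 CPM in EPSCs (3.61, SE 0.32). Sfmbt2, a polycomb-related gene imprinted in extraembryonic tissue, had 99.8 and 105 CPM in S1 cells, against 8.97 and 9.11 CPM in EPSCs (3.502, SE 0.16). For these 3 genes both S1 libraries lay far above both EPSC libraries. Peg10, a retrotransposon-derived gene needed in the placenta (chr6:4747306-4760517), was already abundant in these EPSCs and rose further, with 5909.5 and 6353 CPM in S1 cells, against 1184 and 1224 CPM in EPSCs (2.35, SE 0.14). Sgce, which encodes epsilon-sarcoglycan and lies beside Peg10 on the other strand, averaged 61.8 ± 1.03 CPM in S1 cells and 18.4 ± 0.41 CPM in EPSCs (SD, n = 2 each) (1.75, SE 0.11). Dio3 (which inactivates thyroid hormone), Zim1 (a zinc finger gene), Mest (a hydrolase-like protein of mesoderm) and Cdkn1c rose by 1.85, 1.60, 1.31 and 1.29. Zdbf2, a zinc finger gene, averaged 121 ± 16.9 CPM in S1 cells and 290.3 ± 1.93 CPM in EPSCs (SD, n = 2 each) (-1.26, SE 0.23); the transporter gene Slc22a18, the antisense RNA Nespas (listed in the table under its newer symbol Gnasas1) and the noncoding RNA Mirg were the other 3 that fell. The median log2 fold change of the 30 genes was 0.40, against 0.00 over all genes. Wherever the first set is used, shares and medians over all genes include genes with no count in it, which the 30 leave out. Trophectoderm and trophoblast markers (11 genes) summed to 1049 to 1377 CPM in S1 cells, against 54.1 to 56.8 CPM in EPSCs. The factors Cdx2 and Ascl2 made up little of that sum. They averaged 4.40 and 13.2 CPM in S1 cells, against 0.757 and 7.84 CPM in EPSCs. The part of the list in these values was not tested. In bulk libraries more cells of a type and more RNA per cell cannot be told apart.

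Under CHIR alone 6 of the 30 genes were higher than in EPSCs kept in LCDM medium and 6 were lower. Over all genes 11.7% rose and 6.99% fell, 18.7% in all. The base medium of the CHIR groups is not given, so CHIR and a change of medium cannot be told apart. Sfmbt2 had 97.8 and 103 CPM under CHIR, against 8.97 and 9.11 CPM in EPSCs (3.47, SE 0.16), close to its level in S1 cells. Grb10 had 212 and 249 CPM under CHIR, against 57.0 and 56.8 CPM in EPSCs (2.02, SE 0.13), and 76.7 and 84.0 CPM in S1 cells, where its log2 fold change of 0.50 (adjusted p = 0.000731) was under the fold threshold. Inpp5f (an inositol phosphatase), Airn and Phlda2, which restrains placental growth, rose by 2.22, 1.96 and 1.30. H19 reached 44.6 and 18.2 CPM under CHIR (2.29, SE 0.26), far below S1 cells. Slc22a18, Usp29 (a ubiquitin protease gene), Meg3, Gnas (a G protein subunit), Mirg and Plagl1 (a zinc finger factor that restrains growth) fell by 3.22, 1.88, 1.73, 1.68, 1.51 and 1.05. The 2 CHIR libraries lay far apart for H19 and for Meg3, which had 59.5 and 24.0 CPM under CHIR. They also lay apart for Gnas (7.03 ± 3.08 CPM), Slc22a18 (0.926 ± 0.713 CPM) and Zdbf2 (207 ± 65.6 CPM) (SD, n = 2 each). Extraembryonic endoderm markers (12 genes) summed to 287 to 306 CPM under CHIR, against 16.3 to 17.0 CPM in EPSCs, with Afp at 0.018 CPM under CHIR, and feeder fibroblast markers (17 genes) to 117 to 127 CPM, against 303 to 329 CPM. Among the feeder markers Pdgfra moved the other way, with 15.9 CPM under CHIR against 3.79 CPM in EPSCs (2.07, SE 0.16). Trophectoderm and trophoblast markers summed to 82.6 to 103 CPM under CHIR, against 54.1 to 56.8 CPM in EPSCs. The keratins Krt8 and Krt18 averaged 43.8 and 24.2 CPM under CHIR, against 9.87 and 4.62 CPM in EPSCs. Tfap2c and Tfap2a moved the other way, from 25.1 and 6.23 CPM in EPSCs to 13.1 and 0.809 CPM under CHIR. Ascl2 and Gata3 also had lower means under CHIR. For all 3 lists their part in these values was not tested.

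CD1530 added to CHIR raised 6 of the 30 genes and lowered 5; 9.74% of all genes rose and 6.91% fell, 16.7% in all. H19 had 399.6 and 366 CPM with CD1530, against 44.6 and 18.2 CPM with CHIR alone (3.59, SE 0.26). Peg3, a zinc finger gene that acts on growth and maternal care, had 856 and 876 CPM with CD1530, against 229.7 and 269.9 CPM with CHIR alone (1.79, SE 0.13). Airn, Gnas, H13 (a signal peptide peptidase) and Meg3 rose by 1.79, 1.75, 1.04 and 1.01. Grb10 had 70.7 and 70.4 CPM with CD1530, against 212 and 249 CPM with CHIR alone (-1.71, SE 0.12), and Phlda2, Zdbf2, Cdkn1c and Ppp1r9a fell by 1.58, 1.29, 1.26 and 1.01. Extraembryonic endoderm markers (12 genes) summed to 2614 to 2627 CPM with CD1530, against 287 to 306 CPM with CHIR alone. They were led by Cubn, Dab2 and Gata4, with Afp at 0.068 CPM. Of the trophectoderm and trophoblast markers, Krt8, Krt18 and Krt7 averaged 355, 182 and 30.1 CPM with CD1530. With CHIR alone these 3 averaged 43.8, 24.2 and 2.75 CPM. Cdx2 and Tfap2c rose with CD1530 as well. The part of both lists in these values was not tested. PD0325901 added to CHIR raised 2 of the 30 genes and lowered none; 3.27% of all genes rose and 1.24% fell, 4.51% in all. These were H19, with 196 and 94.6 CPM with PD0325901, against 44.6 and 18.2 CPM with CHIR alone (2.20, SE 0.24), and Peg3 (1.39, SE 0.13). Extraembryonic endoderm markers summed to 30.9 to 46.2 CPM with PD0325901, against 287 to 306 CPM with CHIR alone. Their member Apob moved the other way, with 25.9 CPM against 5.97 CPM. Trophectoderm and trophoblast markers summed to 262 to 288 CPM, against 82.6 to 103 CPM. Feeder fibroblast markers summed to 151 to 200.4 CPM, against 117 to 127 CPM, while their member Pdgfra fell to 2.65 CPM, against 15.9 CPM. The part of these lists in these values was not tested. With Elvitegravir 0 of the 30 passed the adjusted p by edgeR and 0 were called by DESeq2, with 8 at an unadjusted p below 0.05; 0.00399% of all genes rose and 0.00399% fell, 0.00798% in all. Without CHIR replicate 1, H19, Meg3, Dlk1 and Gnas rose with Elvitegravir, and 4 genes rose with PD0325901.

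In mESCs the totipotency medium raised 12 of 38 genes in 2 days and lowered 6; 14.2% of all genes rose and 8.26% fell, 22.5% in all. Peg10 had 2283 and 2223 CPM in mESC-S1 cells, against 47.8 and 51.7 CPM in mESCs (5.50, SE 0.17, adjusted p = 7.6e-25). H19 had 743 and 767 CPM in mESC-S1 cells, against 20.6 and 18.5 CPM in mESCs (5.27, SE 0.28). Both genes stood far above the mESC libraries. Ndn, a MAGE family gene of the Prader-Willi region, averaged 41.0 ± 0.88 CPM in mESC-S1 cells and 12.4 ± 0.88 CPM in mESCs (SD, n = 2 each), and its neighbour Magel2 averaged 2.99 ± 0.081 CPM in mESC-S1 cells and 0.125 ± 0.1 CPM in mESCs. Sfmbt2, Sgce, Mest, Cdkn1c, Igf2, Zdbf2 and Phlda2 rose by 2.73, 2.55, 2.07, 1.76, 1.497, 1.37 and 1.11.

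The maternally expressed noncoding RNAs of the Dlk1-Dio3 domain on chromosome 12 fell in mESC-S1 cells. Meg3 (chr12:109541001-109571726), a long noncoding RNA, had 14.4 and 14.3 CPM in mESC-S1 cells, against 124 and 112 CPM in mESCs (-3.04, SE 0.26). Rian, which carries small nucleolar RNAs, had 37.2 and 39.9 CPM in mESC-S1 cells, against 178 and 156 CPM in mESCs (-2.12, SE 0.08). Mirg, which carries 14 annotated miRNA hairpins, had 3.13 and 2.82 CPM in mESC-S1 cells, against 10.7 and 10.1 CPM in mESCs (-1.80, SE 0.19). The groups did not overlap for any of the 3 RNAs, which with 2 libraries a group can also occur without a change. Dlk1, a paternally expressed Notch-like ligand, moved the other way, with 5.77 and 7.22 CPM in mESC-S1 cells, against 1.38 and 1.03 CPM in mESCs (2.44, SE 0.27), and Dio3 averaged 0.197 ± 0.051 CPM in mESC-S1 cells and 1.96 ± 0.0052 CPM in mESCs (SD, n = 2 each). Kcnq1ot1, the noncoding RNA that silences the Cdkn1c domain, averaged 15.8 ± 0.82 CPM in mESC-S1 cells and 37.8 ± 7.92 CPM in mESCs (SD, n = 2 each) (-1.26, SE 0.24).

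**Figure D1:**
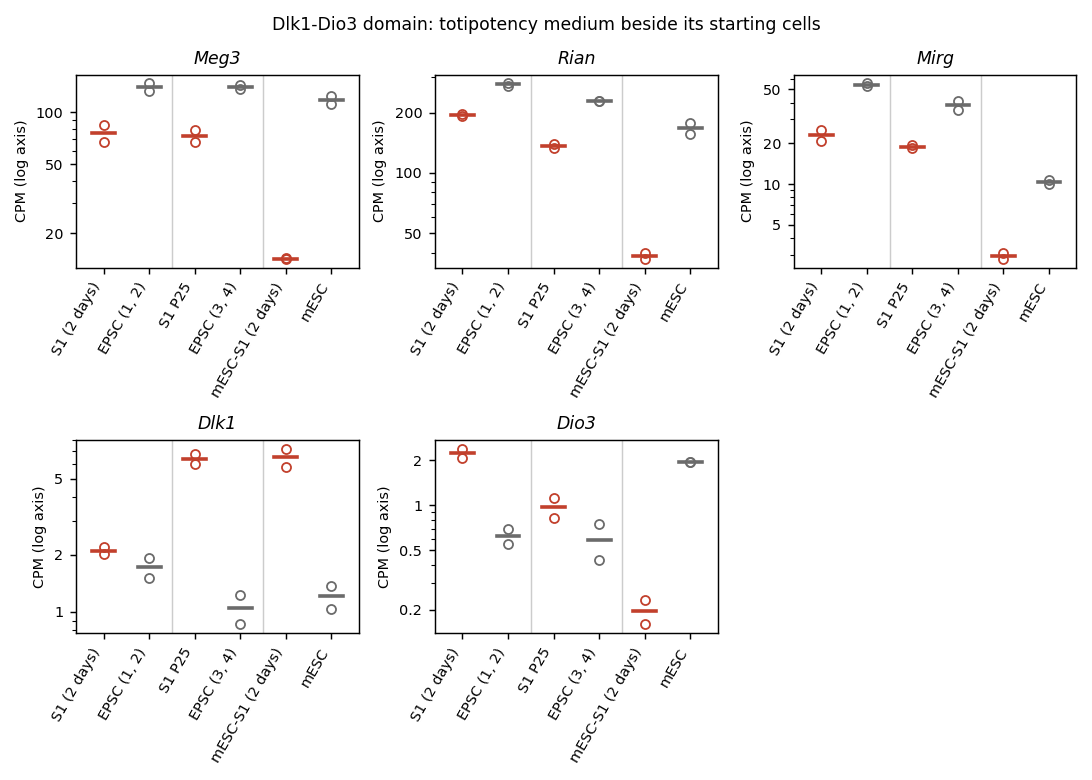
CPM on log axes for 5 genes of the Dlk1-Dio3 domain in cells given the totipotency medium, each left of its own starting cells; circles are the 2 libraries of a group and bars their mean. Meg3, Rian and Mirg average 14.3, 38.6 and 2.97 CPM in mESC-S1 cells, below mESCs, while Dlk1 lies above mESCs.

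The responses of mESCs and EPSCs to 2 days of the medium differed for 11 of the 30 genes; the difference passed upward in 8.7% of all genes and downward in 9.97%. It was -2.16 (SE 0.34, adjusted p = 2.4e-06) for Meg3 and -1.60 for Rian, lower in mESCs, and 2.14 for Dlk1. For Mirg it did not pass the test. The EPSC response was measured in the first set and the mESC response in the second, so starting cells and set cannot be told apart. Peg10 rose by more in mESCs, by 3.15, and for H19 the difference was -2.29. Zdbf2 rose in mESCs and fell in EPSCs (difference 2.63), and Airn rose in EPSCs, with log2 fold changes of -0.15 in mESCs and 3.61 in EPSCs. The starting cells differed too: 6 of 38 genes were higher and 10 lower in mESCs than in EPSC libraries 3 and 4; 9.66% of all genes were higher and 9.94% lower, 19.6% in all. Plagl1 (chr10:13060504-13131694) had 350.5 and 367 CPM in mESCs, against 87.8 and 94.4 CPM in EPSCs (1.98, SE 0.12), and Peg10 had 47.8 and 51.7 CPM in mESCs, against 186 and 221 CPM in EPSCs (-2.04, SE 0.14). Feeder fibroblast markers (17 genes) summed to 1117 to 1129 CPM in mESC-S1 cells, 2233 to 2338 CPM in mESCs and 799 to 812 CPM in EPSC libraries 3 and 4; their part in these values was not tested.

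At 25 passages 17 of 38 genes were higher than in EPSC libraries 3 and 4 and 3 were lower; 13.2% of all genes rose and 5.5% fell, 18.7% in all. H19 had 7136 and 7198 CPM in P25 cells, against 5.99 and 6.31 CPM in EPSCs (10.19, SE 0.35, adjusted p = 2.4e-23). Per kilobase of exon its level was 2913 CPM in P25 cells, where Peg10 stood at 752 and Peg3 at 72.2. Sfmbt2 had 172 and 166 CPM in P25 cells, against 4.37 and 6.52 CPM in EPSCs (4.96, SE 0.18). Peg10 had 5041 and 4979.9 CPM in P25 cells, against 186 and 221 CPM in EPSCs (4.62, SE 0.16). All of these groups lay apart, which with 2 libraries a group can also occur without a change. Peg3 had 965 and 958 CPM in P25 cells, against 172 and 201 CPM in EPSCs (2.37, SE 0.13), and its neighbour Usp29 had 16.1 and 18.5 CPM, against 4.64 and 2.83 CPM. Igf2, the growth factor gene beside H19, had 4.20 and 5.43 CPM in P25 cells, against 0.216 and 0.588 CPM in EPSCs (3.56, SE 0.58). Airn, Cdkn1c, Nnat (a membrane proteolipid), Mest, Dlk1 and Sgce rose by 3.96, 3.31, 2.82, 2.78, 2.60 and 2.43, and Slc22a18, Zdbf2 and Mirg fell by 2.72, 1.44 and 1.02. Of 22 paternally expressed genes 12 rose and 1 fell, and of 14 maternally expressed genes 5 rose and 2 fell. This split differed between comparisons. In mESC-S1 cells 9 of 22 paternally expressed genes rose and 2 fell, and 3 of 14 maternally expressed genes rose and 4 fell. In S5 against S3, 5 of 22 paternally expressed genes rose and 3 fell, and 6 of 14 maternally expressed genes rose and 0 fell. Under CHIR 2 of 14 paternally expressed genes rose and 2 fell, and 3 of 14 maternally expressed genes rose and 3 fell. Trophectoderm and trophoblast markers summed to 983 to 1016 CPM in P25 cells, against 92.1 to 93.6 CPM in EPSCs, and feeder fibroblast markers to 1510.3 to 1521 CPM, against 799 to 812 CPM; their part in these values was not tested. In the libraries of P25, P38 and EPSCs 3 and 4 low counts were even in 40.7 to 42.0% of cases, against 66.9 to 80.5% in the other 46 libraries, so these 6 libraries seem to have been counted by read pair and the rest by mate. Comparisons of mESCs with EPSC libraries 3 and 4 and of S2 with P25 cells run across that divide, and its part in them was not tested.

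Between P38 and P25 cells 0 of the 38 genes passed both the adjusted p and the fold threshold by edgeR, and 0 by DESeq2; 0.0319% of all genes rose and 0.307% fell, 0.339% in all. At an adjusted p below 0.05 alone 5 did in edgeR, all lower in P38 cells by less than the fold threshold (16 at an unadjusted p below 0.05): Mest (-0.70, SE 0.14), Peg10 (-0.52, SE 0.14), Ndn (-0.52, SE 0.14), Peg3 (-0.51, SE 0.13) and Impact (-0.39, SE 0.11). H19 had 4151 and 5220.3 CPM in P38 cells, against 7136 and 7198 CPM in P25 cells. Of the 38 genes 30 had a lower mean in P38 cells, with a median log2 fold change of -0.30.

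The signed response (log2 fold change over EPSCs) was higher at P25 than at 2 days for 12 of the 30 genes compared and lower for 1. This difference passed upward in 4.76% of all genes and downward in 4.54%. It was 3.14 for Usp29, 2.63 for H19, 2.31 for Dlk1, 2.27 for Peg10 and 2.02 for Cdkn1c. A higher value is not always a larger change: Usp29 was lower than in EPSCs at 2 days (-0.92, SE 0.17) and higher at P25. Each response was taken against the EPSC pair of its own set, so duration and set cannot be told apart, and the pairs themselves differed. Peg10 had 186 and 221 CPM in EPSC libraries 3 and 4 and 1184 and 1224 CPM in libraries 1 and 2. With the 4 EPSC libraries pooled 7 genes were called in place of 13, and the difference of Peg10 was -0.29.

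In S2 aggregates 14 of 38 genes were lower than in P25 cells and 4 higher; 4.69% of all genes rose and 11.4% fell, 16.1% in all. H19 had 52.9 and 58.6 CPM in S2, against 7136 and 7198 CPM in P25 cells (-7.01, SE 0.30). Cdkn1c had 0.973 and 0.495 CPM in S2, against 14.3 and 15.5 CPM in P25 cells (-4.34, SE 0.30). Phlda2, its neighbour, had 2.35 and 1.82 CPM in S2, against 20.7 and 23.1 CPM in P25 cells (-3.39, SE 0.26). The 3 genes were low in both S2 libraries. Airn, Peg13, Sfmbt2, Mest, Usp29, Grb10 and Peg3 fell by 4.11, 3.80, 2.74, 2.55, 2.26, 2.16 and 1.91. Zdbf2 moved the other way, with 483 and 491 CPM in S2, against 90.3 and 90.6 CPM in P25 cells (2.43, SE 0.24), and Dio3, Nnat and Plagl1 rose by 2.98, 1.42 and 1.27. Feeder fibroblast markers summed to 322 to 334 CPM in S2, against 1510.3 to 1521 CPM in P25 cells; their part in these values was not tested. S3 differed from S2 in 2 genes, both lower; 1.9% of all genes rose and 3.37% fell, 5.28% in all. Dio3 had 0.788 and 0.670 CPM in S3, against 7.76 and 7.81 CPM in S2 (-3.41, SE 0.43). Phlda2 averaged 0.991 ± 0.11 CPM in S3 and 2.08 ± 0.38 CPM in S2 (SD, n = 2 each), a call that was lost without S3 replicate 2 or without S2 replicate 1; without S2 replicate 2, 5 genes were called.

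S5 aggregates differed from S3 in 15 of 38 genes, 12 higher and 3 lower; 14.1% of all genes rose and 8.5% fell, 22.6% in all. Plagl1 had 15.1 and 12.5 CPM in S5, against 338 and 349 CPM in S3 (-4.63, SE 0.13, adjusted p = 5.1e-26). Grb10 moved the other way, with 172 and 203 CPM in S5, against 10.6 and 11.1 CPM in S3 (4.11, SE 0.14). The groups lay far apart for both. H19 had 565 and 457 CPM in S5, against 71.2 and 58.0 CPM in S3 (2.98, SE 0.25), and Igf2 had 63.7 and 33.6 CPM, against 7.77 and 9.65 CPM (2.48, SE 0.31). Phlda2 and Cdkn1c rose together, to 11.7 ± 2.42 and 6.99 ± 2.89 CPM in S5, against 0.991 ± 0.11 and 0.879 ± 0.23 CPM in S3 (SD, n = 2 each). Magel2, Inpp5f, Usp29, Mest, Peg3, Mirg and Rian rose by 2.53, 2.05, 1.51, 1.27, 1.17, 1.10 and 1.09, and Nnat and Zdbf2 fell by 1.56 and 1.46. Extraembryonic endoderm markers summed to 2816 to 4137 CPM in S5, against 138 to 141 CPM in S3, with Cubn, Dab2 and Apob the most abundant; their part in these values was not tested.

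**Figure D2:**
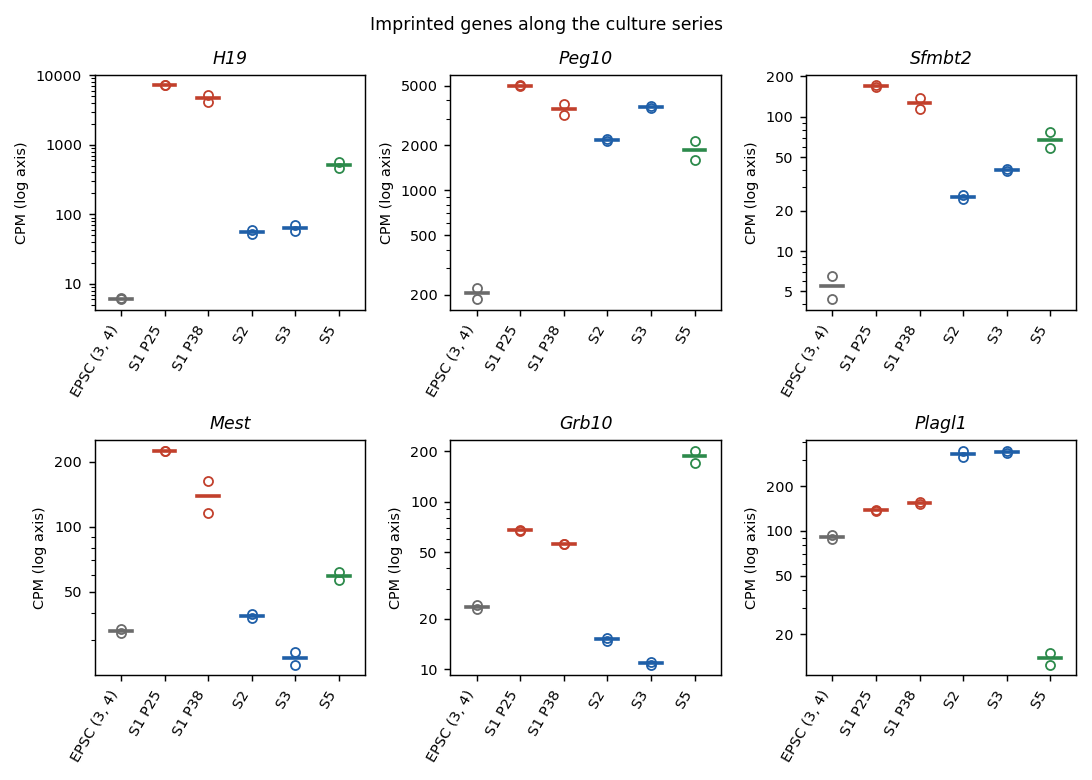
CPM on log axes for 6 imprinted genes from EPSC libraries 3 and 4 through S1 cells at passages 25 and 38 to S2, S3 and S5; circles are libraries and bars the mean of 2. H19, Sfmbt2 and Mest are highest in P25 cells, and Plagl1 is lowest in S5, at 15.1 and 12.5 CPM.

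Of the omissions tested, leaving out CHIR moved more of these genes than any other at both stages where it was done. Without CHIR 9 of 38 genes rose at S2 and 1 fell; 2.86% of all genes rose and 2.22% fell, 5.07% in all. At S3 13 rose without CHIR and 1 fell; 5.04% of all genes rose and 4.11% fell, 9.16% in all. Mest had 299.9 and 299 CPM in S2 without CHIR, against 39.3 and 37.7 CPM in S2 (2.96, SE 0.15). At S3 it had 225 and 236 CPM without CHIR, against 26.3 and 23.0 CPM in S3 (3.23, SE 0.15). Plagl1 was the gene that fell at both stages. It had 134 and 124 CPM in S2 without CHIR, against 318 and 347 CPM in S2 (-1.36, SE 0.11). At S3 it had 88.5 and 87.1 CPM without CHIR, against 338 and 349 CPM in S3 (-1.97, SE 0.11). The libraries did not overlap for either gene at either stage, which with 2 libraries a group can also occur without a change. Phlda2 had 17.1 and 15.3 CPM in S3 without CHIR, against 1.07 and 0.916 CPM in S3 (4.03, SE 0.28), and Cdkn1c had 13.1 and 11.6 CPM, against 1.04 and 0.715 CPM (3.81, SE 0.28). H19 had 465 and 479.6 CPM in S3 without CHIR, against 71.2 and 58.0 CPM in S3 (2.87, SE 0.25), and Igf2 had 51.1 and 43.0 CPM, against 7.77 and 9.65 CPM (2.43, SE 0.31). These 4 genes, Peg3, Grb10 and Magel2 rose at both stages, Peg10 at S2, and Nnat, Usp29, Dio3, Airn and Zim1 at S3. Trophectoderm and trophoblast markers summed to 1196 to 1210.0 CPM in S3 without CHIR, against 493 to 520.5 CPM in S3, and extraembryonic endoderm markers to 598 to 623 CPM, against 138 to 141 CPM; their part in these values was not tested.

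The other omissions from the 4C-64C medium moved fewer of the 38 genes. At S2 without 8Br-cAMP 0 passed both thresholds by edgeR and 0 by DESeq2; 0.643% of all genes rose and 1.28% fell, 1.92% in all. At an adjusted p below 0.05 alone 7 did in edgeR (14 at an unadjusted p below 0.05), with Zdbf2 lower (-0.96, SE 0.23) and Peg3 higher (0.85, SE 0.13) among them. Nnat fell at S2 without Birabresib, with 68.0 and 80.0 CPM, against 164 and 153 CPM in S2 (-1.10, SE 0.14); 2.85% of all genes rose and 0.128% fell, 2.98% in all, and the call was lost without replicate 1 of the group lacking Birabresib. Magel2 fell at S2 without CD1530, with 0.705 and 0.5999 CPM, against 2.18 and 0.935 CPM in S2; 0.718% of all genes rose and 1.61% fell, 2.33% in all, and the call was lost without S2 replicate 1 and without either library that lacked CD1530. At S3 4 genes rose and 3 fell without 8Br-cAMP; 2.83% of all genes rose and 3.8% fell, 6.63% in all. Zdbf2 had 143 and 139 CPM in S3 without 8Br-cAMP, against 438 and 522 CPM in S3 (-1.76, SE 0.23), Dlk1 and Dio3 fell by 1.20 and 1.71, and Airn, Grb10, Peg3 and Mest rose by 1.78, 1.33, 1.05 and 1.01. Without Birabresib at S3 5 genes rose; 5.75% of all genes rose and 0.459% fell, 6.21% in all. Dio3 had 6.32 and 6.49 CPM in S3 without Birabresib, against 0.788 and 0.670 CPM in S3 (3.13, SE 0.43). Dlk1 had 12.0 and 8.58 CPM in S3 without Birabresib, against 4.68 and 4.87 CPM in S3 (1.11, SE 0.23). In S3 without CD1530 Dlk1 fell to 1.12 and 1.27 CPM (-1.996, SE 0.26) and Phlda2 rose (1.18, SE 0.30); 1.97% of all genes rose and 3.82% fell, 5.79% in all.

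At S5 leaving out FGF4 lowered 7 of 38 genes and raised 1; 2.12% of all genes rose and 2.53% fell, 4.65% in all. Igf2 had 11.8 and 10.1 CPM in S5 without FGF4, against 63.7 and 33.6 CPM in S5 (-2.15, SE 0.31). H19 had 124 and 125 CPM in S5 without FGF4, against 565 and 457 CPM in S5 (-2.04, SE 0.24). Sfmbt2, Grb10, Dio3, Peg3 and Peg10 fell by 1.80, 1.49, 1.44, 1.15 and 1.04, and Magel2 rose (1.00, SE 0.28), a call that was lost without replicate 1 of the group lacking FGF4 or without S5 replicate 2. Extraembryonic endoderm markers summed to 949 to 997 CPM in S5 without FGF4, against 2816 to 4137 CPM in S5, and trophectoderm and trophoblast markers to 210.4 to 215 CPM, against 554 to 675 CPM; their part in these values was not tested. Grb10 fell in 3 of the 4 omissions, which share the same S5 libraries. It had 58.1 and 64.7 CPM without Activin A, 72.8 and 60.5 CPM without FGF4 and 63.8 and 93.0 CPM without XAV 939, against 172 and 203 CPM in S5. It was the single gene past both thresholds without Activin A; 0.407% of all genes rose and 0.714% fell, 1.12% in all. Ndn and H13 passed the adjusted p there with smaller log2 fold changes, of 0.74 and 0.37. Without XAV 939 Igf2 fell as well; 1.13% of all genes rose and 1.01% fell, 2.14% in all. It had 10.9 and 33.9 CPM without XAV 939, against 63.7 and 33.6 CPM in S5, so the groups overlap, and the call was lost without replicate 1 of either group. Without BMP4 Grb10 averaged 135 ± 7.72 CPM, against 187 ± 21.9 CPM in S5 (SD, n = 2 each), a difference with an adjusted p of 0.0654 in edgeR. There 0 of the 38 genes passed the adjusted p by edgeR and 0 were called by DESeq2, with 6 at an unadjusted p below 0.05; 0.016% of all genes rose and 0.0399% fell, 0.0559% in all.

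**Figure D3:**
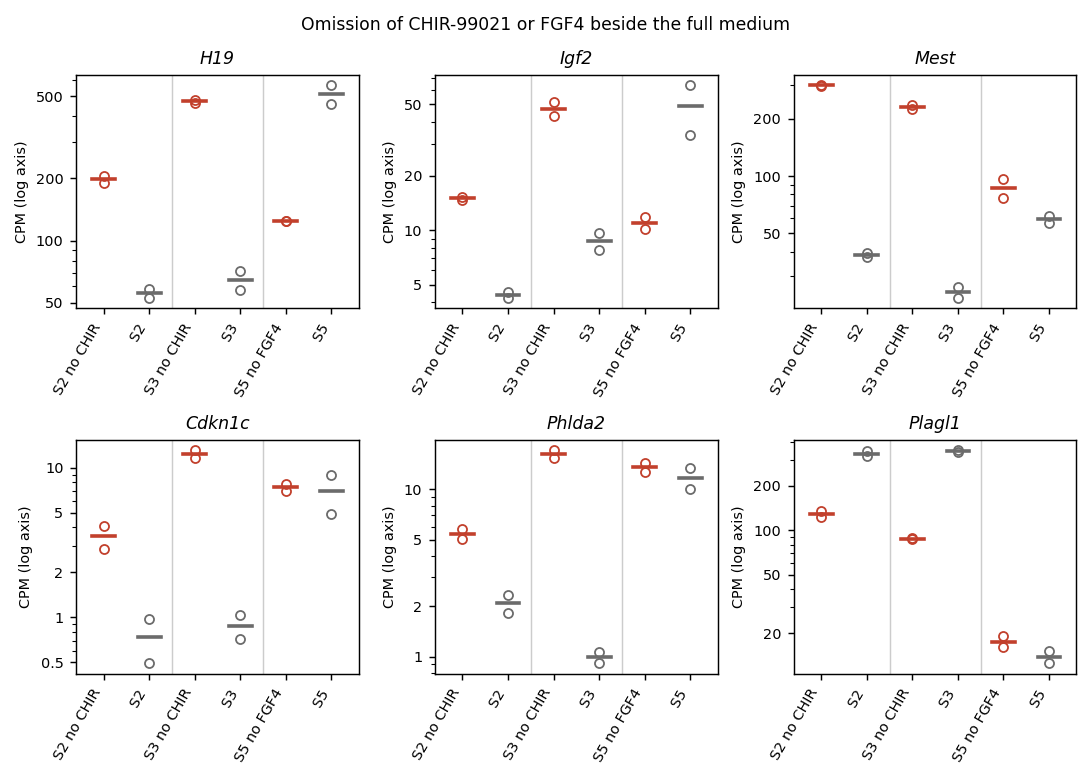
CPM on log axes for 6 imprinted genes in aggregates that lacked CHIR at S2 or S3 or FGF4 at S5, each left of the full medium; circles are libraries and bars the mean of 2. Without CHIR H19, Igf2, Mest, Cdkn1c and Phlda2 lie above the full medium and Plagl1 below it, and without FGF4 H19 and Igf2 lie below it.

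**Figure D4:**
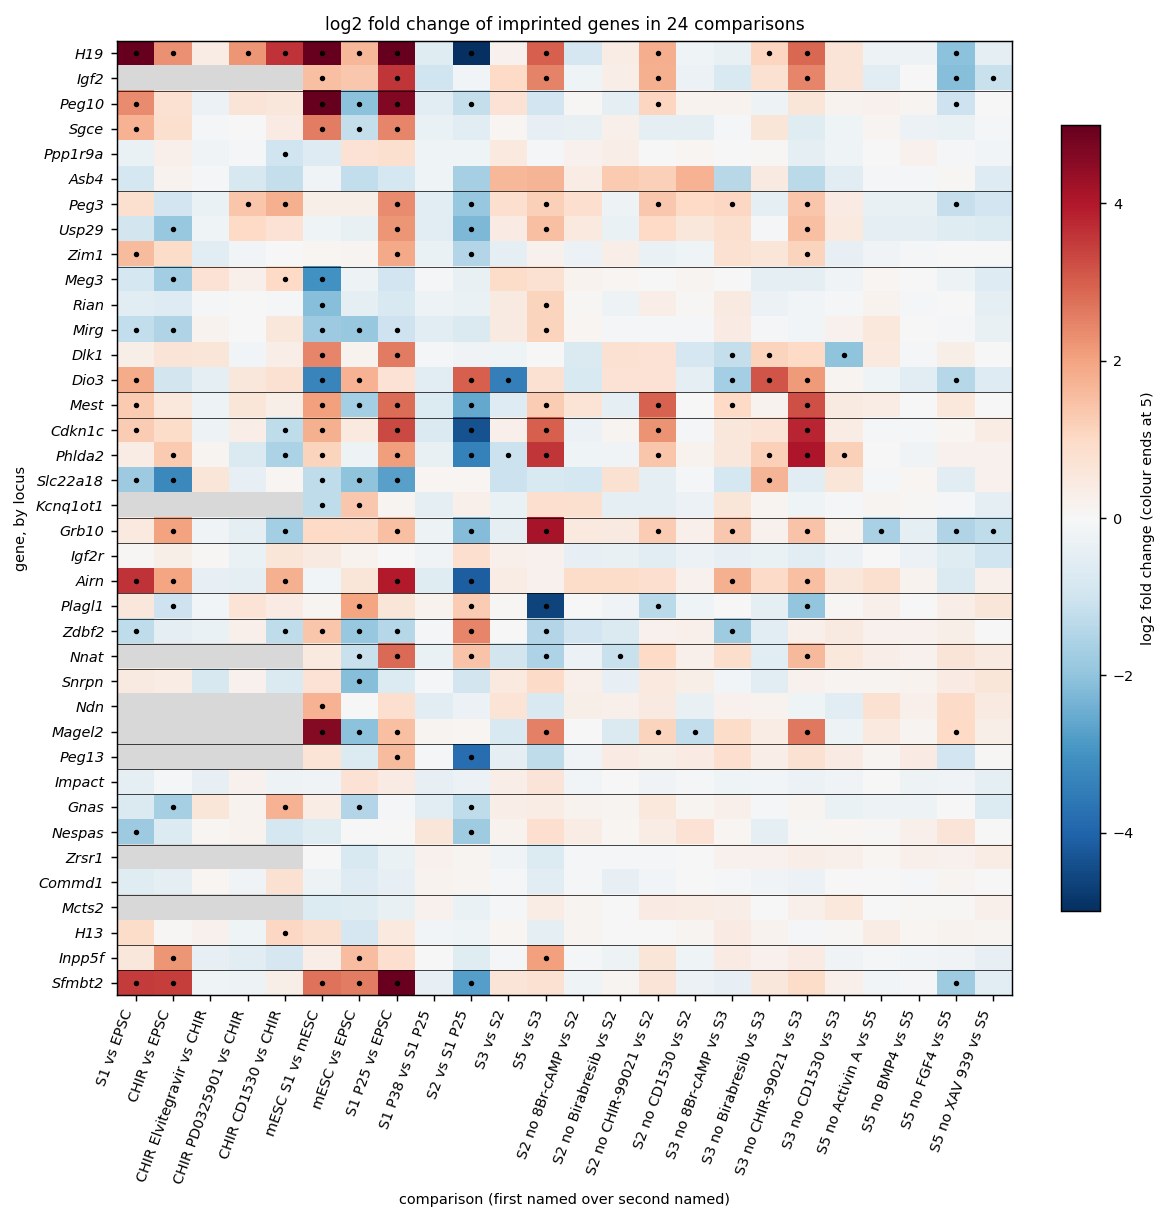
Log2 fold change of 38 imprinted genes (rows, by locus) in 24 comparisons (columns), first named group over second, with colour ending at 5 in size; dots mark genes that rose or fell and grey marks genes not judged in the first set. H19 carries a dot in 13 of its 24 comparisons, and Igf2r, Impact, Asb4, Commd1, Zrsr1 and Mcts2 carry none.

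Several neighbouring genes had like levels across groups. Over the means of the 20 groups of the second set, on the log2 scale, r was 0.88 for Peg10 and Sgce, 0.91 for Peg3 and Usp29, 0.96 for Meg3 and Rian, 0.95 for Rian and Mirg and 0.96 for Cdkn1c and Phlda2. It was 0.41 for H19 and Igf2, -0.29 for Meg3 and Dlk1 and -0.43 for Igf2r and its antisense RNA Airn. The groups share lines, media and in part starting cells, and neighbours can share reads, so these are descriptions. In P25 cells H19 averaged 7167 CPM and Igf2 4.81 CPM, while in S5 they averaged 511 and 48.6 CPM. H19 had the widest span of the 39 genes over these groups, from 6.15 CPM in EPSCs to 7167 CPM in P25 cells, followed by Peg10, from 49.8 CPM in mESCs to 5499 CPM in S3 without CHIR.

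**Figure D5:**
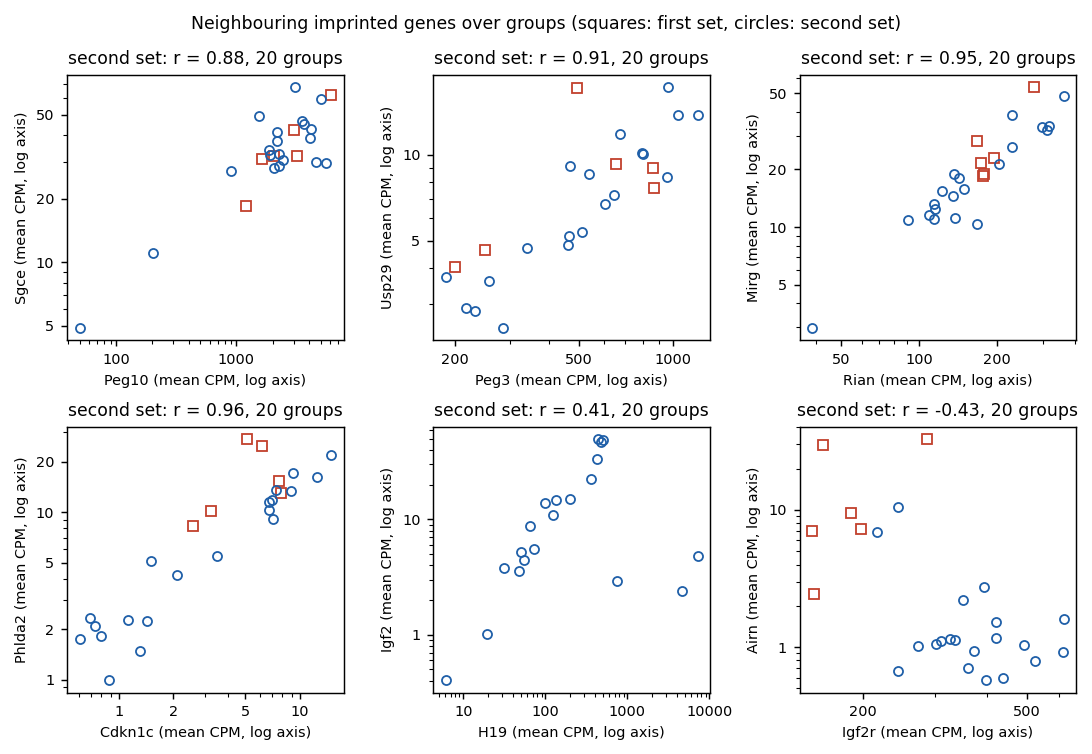
Mean CPM of 6 pairs of neighbouring imprinted genes on log axes, with 1 point for each group and r over the 20 groups of the second set. Cdkn1c and Phlda2 rise together with r = 0.96, while H19 and Igf2 have r = 0.41.

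Of 21 genes that set or guard imprints, 10 fell and 1 rose in 2-day S1 cells, 3 fell and 1 rose in mESC-S1 cells, and 5 fell and 3 rose in P25 cells. Over all genes tested 18.7% rose and 9.16% fell in S1 cells, 14.2% rose and 8.26% fell in mESC-S1 cells and 13.2% rose and 5.5% fell in P25 cells. The median log2 fold changes of the 21 were -0.89, 0.09 and -0.24. Zfp57 fell in all 3. It averaged 137 ± 5.09 CPM in S1 cells and 678 ± 10.8 CPM in EPSCs, 127 ± 5.33 CPM in mESC-S1 cells and 610.4 ± 12.3 CPM in mESCs, and 189.6 ± 2.60 CPM in P25 cells and 592 ± 7.89 CPM in EPSCs (SD, n = 2 each). Tet1, which oxidises methylcytosine, averaged 71.1 ± 12.9 CPM in S1 cells and 807 ± 22.9 CPM in EPSCs (SD, n = 2 each). In S2 Zfp57 was higher than in P25 cells, at 473 ± 20.6 CPM against 189.6 ± 2.60 CPM, and Dnmt3l, the cofactor of de novo methylation, was lower, at 10.6 ± 0.77 CPM against 357 ± 3.09 CPM (SD, n = 2 each). In S5 Dnmt3b, a de novo methyltransferase, rose to 879 ± 21.8 CPM, against 106 ± 1.65 CPM in S3, and Dnmt3l to 326 ± 20.8 CPM, against 11.4 ± 0.018 CPM, while Zfp57 fell to 185 ± 26.3 CPM, against 538 ± 8.00 CPM (SD, n = 2 each). Without CHIR 2 of the 21 rose at S2 and 2 at S3, and none fell; over all genes 2.86% rose and 2.22% fell at S2 and 5.04% rose and 4.11% fell at S3.

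Of 42 further imprinted genes 39 were tested. In 2-day S1 cells 9 rose and 5 fell, in mESC-S1 cells 8 rose and 6 fell, and in P25 cells 11 rose and 4 fell, with the shares over all genes as given for the 21. Slc38a4, an amino acid transporter gene whose imprint, like that of Sfmbt2, is known to rest on a histone mark, averaged 663 ± 2.15 CPM in S1 cells and 2.22 ± 0.56 CPM in EPSCs (8.23, SE 0.15), and 1032 ± 2.84 CPM in P25 cells and 0.725 ± 0.043 CPM in EPSCs (10.47, SE 0.18). In mESC-S1 cells it averaged 511 ± 6.98 CPM, against 132 ± 5.94 CPM in mESCs (SD, n = 2 each). Adam23, a cell adhesion gene, fell in all 3, to 37.5 ± 2.23 CPM in S1 cells against 278 ± 5.32 CPM in EPSCs. In S2 8 of the 39 fell against P25 cells and 2 rose, where over all genes 4.69% rose and 11.4% fell. Without CHIR 6 rose and 3 fell at S3, where over all genes 5.04% rose and 4.11% fell.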

How the data were processed

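Per the submitters' processing notes, reads were handled with Trimmomatic 0.39, STAR 2.7.10b and featureCounts 2.0.6 on mm10; the sources used here do not give the annotation, the strand setting or how mates were counted. The authors deposited whole-number counts per gene for 52 libraries, with totals of 16643188 to 108304781. Replicates were compared and no 2 were identical. The 2 libraries lay furthest apart for CHIR, CHIR with PD0325901 and S5 without XAV 939. Their chi-square per degree of freedom was 99.1, 88.2 and 58.7, against at most 21.5 in the other groups. All 52 libraries were fitted together in edgeR 4.0.16 (R 4.3.3, limma 3.58.1): TMM scaling, filterByExpr (25056 of 55291 genes kept), a mean for each group, EPSC libraries 1 and 2 apart from 3 and 4, and the quasi-likelihood test with Benjamini-Hochberg adjustment over all tested genes. Genes called had an adjusted p below 0.05 and a log2 fold change of at least 1. The code was tested on simulated data. The alternatives were DESeq2 size factors, no filter, DESeq2 1.42.0, each experiment's libraries alone, a replicate block, all EPSC libraries pooled and leaving out each library.

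The imprinted genes and gene lists were chosen with earlier results of these data known. In each comparison up to 10 called genes with a mean of at least 5 CPM in either group were named by size of change; others were named for their locus or role after their values were seen. Some lists share genes.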

Additional observations from a re-analysis of the deposited data

Results flagged for a closer look

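Responses that differed between starting cells or durations by the test of the difference itself, in edgeR, are given as differences of log2 fold changes. For mESCs minus EPSCs after 2 days of the totipotency medium they were -3.76 for Airn, 3.15 for Peg10, 2.63 for Zdbf2, -2.29 for H19, -2.16 for Meg3, 2.14 for Dlk1, -1.60 for Rian, -1.52 for Zim1 and 1.10 for Gnas. The call for Zim1 was lost without mESC replicate 2, and that for Gnas without S1 replicate 2 or mESC replicate 1.

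For P25 minus 2-day S1 cells they were 3.14 for Usp29, 2.63 for H19, 2.31 for Dlk1, 2.27 for Peg10, 2.02 for Cdkn1c, 1.74 for Phlda2, 1.55 for Peg3, 1.47 for Mest, 1.45 for Sfmbt2 and -1.15 for Snrpn. Snrpn had under 1 CPM in the first set, and its call was lost without EPSC replicate 1 (-0.46). The 2 durations lie in different sets of libraries, so duration and set cannot be told apart.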

How the results depend on the processing

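Of 245 recomputed counts of called imprinted genes 221 stayed within 1.5 times the reported count and 24 did not. With each library left out in turn the count ran from 0 to 4 for Elvitegravir, 2 to 4 for PD0325901, 1 to 5 for S3 over S2, 0 to 1 at S2 without 8Br-cAMP, 1 to 3 without Birabresib and 0 to 3 without CD1530, 3 to 5 at S3 without Birabresib and 1 to 2 without CD1530, and 1 to 4 at S5 without XAV 939. With each experiment's libraries alone it was 4 in place of 2 for S3 over S2 and 1 in place of 2 at S5 without XAV 939. At S2 without CD1530 it was 2 in place of 1 both with DESeq2 size factors and with DESeq2. With all 4 EPSC libraries pooled, 7 in place of 13 responses differed between P25 and 2-day S1 cells, and the difference turned round for Peg10 (-0.29) and Snrpn (6.91); the cause was not tested. Of 1347 recomputed fold changes of named genes 1307 kept direction and call, 38 kept direction alone and 2 reversed.

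Replicate numbers are not stated to pair libraries, and deviations of same-numbered libraries correlated with a median of 0.00 and at most 0.43 over 15 pairs of groups in the first set, and at most 0.13 in the others. With the replicate block the counts were 3 in place of 2 for S3 over S2 and 3 in place of 2 at S5 without XAV 939, 13 for 2-day S1 cells, 18 for S2 over P25 cells and 14 at S3 without CHIR, and no other count moved.

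Low-level genes limit these results. Magel2, Dio3, Cdkn1c, Igf2, Airn, Peg13, Phlda2, Slc22a18, Nespas and Snrpn, among others, had under 1 CPM in some groups compared.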
